A study of Mus musculus with 6 samples.

Results

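Monocytes and macrophages in nodular metaplasia of the mouse squamo-columnar junction (SCJ) were followed through 9 marker genes, Cd68, Csf1r, Mrc1, Cd163, Marco, Msr1, Arg1, Cd14 and Lyz2. They were chosen by gene symbol as widely used markers of these cells, and are 9 of the 24647 named genes on the arrays. Each of the 9 was measured by 1 probe set. RNA of whole nodules was measured in 3 samples of K14-Cdx2::L2-IL-1β, the double transgenic genotype (52540, 52541 and 52542), and in 3 of L2-IL-1β, the single transgenic genotype (52543, 52544 and 52545). Both genotypes were on the C57/BL6 strain and carried human IL-1β under the L2 promoter of Epstein-Barr virus, which is active in the squamous epithelium of the oral cavity, esophagus and forestomach. The first genotype also carried Cdx2, an intestinal transcription factor, under the keratin 14 promoter of basal squamous cells. All mice drank 0.2% deoxycholic acid (DCA), a bile acid, from 8 weeks of age for 12 months. No nodule from a mouse without the IL-1β transgene was measured, so every level below is one seen with IL-1β. The paper counts the samples as 3 biological replicates of each genotype. How many nodules made up a sample, and from how many mice, is not stated in the labels or methods, so the p-values measure only the spread between these samples.

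Macrophages arise from embryonic precursors that seed a tissue and from blood monocytes that enter it, often in greater number during inflammation. The cytokines CSF1 and IL-34 keep them alive through the receptor CSF1R. They take up bacteria, dying cells and lipoproteins through scavenger and mannose receptors, digest them in lysosomes, and turn on different genes with bacterial products or with IL-4 and IL-13. No single one of these genes is restricted to macrophages: Lyz2 is also made by neutrophils, and Arg1 is also made by some epithelial and suppressor myeloid cells.

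Values are log2 signals as deposited, so a difference of 1 is a 2-fold difference. A difference is the double transgenic minus the single transgenic mean, and a gene was called when its adjusted p in limma was under 0.10. In counts over gene lists, fell and rose mean called lower and called higher in double transgenic samples. Levels of different genes are not compared, because each probe set has its own brightness. The labels passed a check on the transgene: Cdx2 measured 9.04, 9.72 and 9.83 in the double transgenic samples and 6.74, 6.87 and 6.80 in the single transgenic samples. Median signal ranged from 6.62 to 6.65 across the 6 arrays. The double transgenic samples stood apart from each other in pancreatic acinar and in Y-linked genes. Sample 52542 had a mean of 10.73 over the 11 pancreatic acinar genes, against 6.42 to 7.02 elsewhere. Sample 52541 had a mean of 9.26 over 4 Y-linked genes, against 4.73 to 4.84 in all others. Male tissue was thus seen in 52541 only, and sex was neither balanced between the genotypes nor a term in the fit.

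None of the 9 markers passed the test, in either direction. Of all named genes, 2.14% did, 1.44% lower and 0.706% higher in double transgenic nodules. By value, 4 markers were higher and 5 lower, and their median difference of -0.01 lay close to that of all named genes, 0.00. The widest differences were those of Cd14, at -0.82, Mrc1, at 0.57, and Arg1, at -0.44. These 3 had an unadjusted limma p under 0.05, as did 15.1% of all named genes. In 2 of the 9, Csf1r and Arg1, every double transgenic sample lay below every single transgenic sample, which was so for 12.0% of named genes. In none did every double transgenic sample lie above, as in 9.21% of named genes, so that 2 of 9 markers were without overlap against 21.2% of named genes. An adjusted p above the threshold does not show equal levels, and the interval of each difference is therefore given. In these bulk samples, fewer cells and less RNA per cell cannot be told apart.

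**Figure D1:**
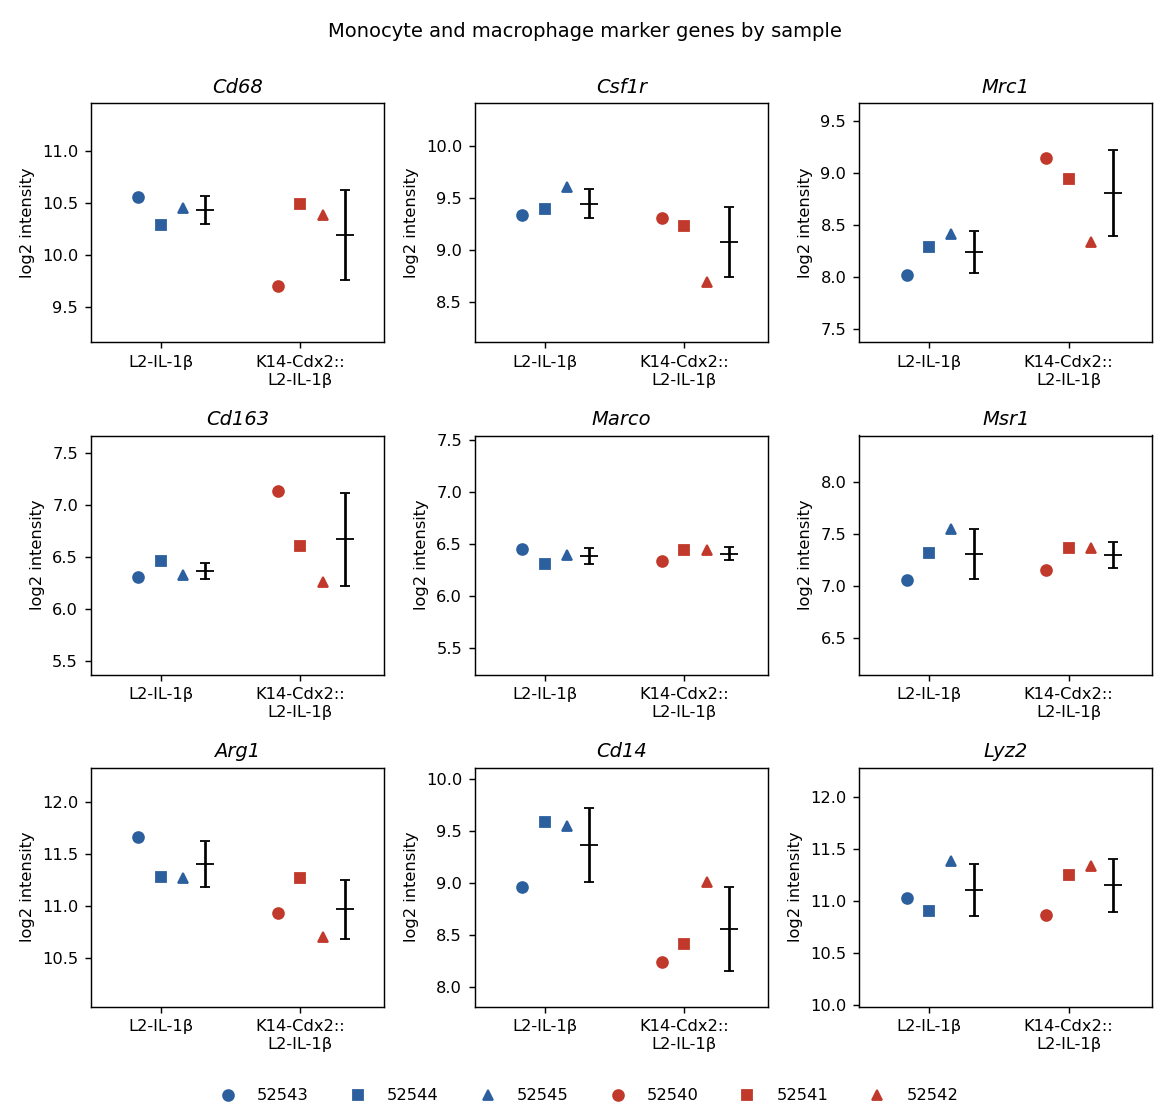
Log2 signal (vertical axis) of each of the 9 markers in the 3 K14-Cdx2::L2-IL-1β and the 3 L2-IL-1β samples (points, with horizontal lines at group means). The groups are apart in Csf1r and Arg1 only, and Marco spans the smallest range, 0.16.

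**Figure D2:**
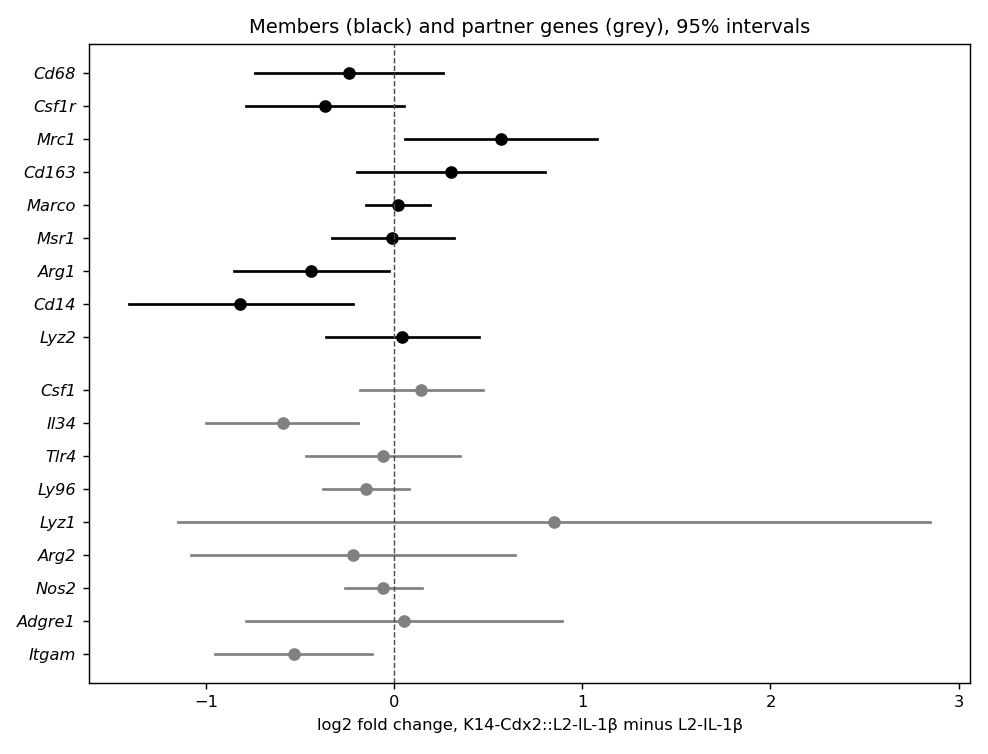
Difference of each marker (black) and of partner genes (grey) in log2 units (horizontal axis, K14-Cdx2::L2-IL-1β minus L2-IL-1β), with its 95% limma interval as a bar. The intervals of Cd14 and Arg1 lie below 0, that of Mrc1 lies above 0, and the other 6 include 0.

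Cd68, a lysosomal membrane glycoprotein used as a general macrophage marker, lies on chromosome 11 from 69477873 to 69479564, on the minus strand (build NCBIM37, as are all gene positions here). Its signal was 9.70, 10.49 and 10.39 in the double transgenic samples and 10.56, 10.29 and 10.45 in the single transgenic samples. A single sample, 52540, was low, and the other 5 lay close together. The difference was -0.24 (SE 0.21, 95% interval -0.74 to 0.26, limma adjusted p = 0.682). Lyz2, the lysozyme of macrophages and granulocytes, splits bacterial cell walls and lies on chromosome 10 from 116714390 to 116719377. It measured 10.86, 11.25 and 11.33 in double transgenic against 11.03, 10.90 and 11.38 in single transgenic samples, so the groups overlapped. The difference was 0.04 (interval -0.36 to 0.45, limma adjusted p = 0.942). Its near-identical neighbour Lyz1, the lysozyme of Paneth cells, lies from 116724852 to 116729924, on the minus strand like Lyz2, and varied far more. Lyz1 was at 10.01, 11.70 and 13.56 in double transgenic samples and at 11.34, 11.09 and 10.29 in single transgenic samples. The span of 3 to 4 log2 units in Lyz1 stood beside a range of 0.52 in Lyz2. Whether probes of one gene also read the other was not tested. Of 15 other lysosomal genes, none passed the test and the median difference was -0.02. The smallest p among them was that of Ctsd, the protease cathepsin D, at -0.25 (limma adjusted p = 0.212).

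Csf1r, the receptor through which macrophages and their precursors receive survival signals, lies on chromosome 18. The receptor's signal was 9.31, 9.23 and 8.69 in the double transgenic samples and 9.34, 9.39 and 9.61 in the single transgenic samples. The groups did not overlap, although 52540 came within a few hundredths of the lowest single transgenic sample, and 52542 lay well below the other 5. The difference was -0.37 (SE 0.18, interval -0.79 to 0.05, limma adjusted p = 0.424, exact two-sided permutation p = 0.1, the smallest that 3 against 3 samples can give). Of its ligands, Il34 was also lower without overlap. Il34 measured 8.81, 8.81 and 8.20 in double transgenic samples and 9.14, 9.24 and 9.23 in single transgenic samples, a difference of -0.59 (limma adjusted p = 0.203). Csf1, the other ligand, overlapped, at 8.24, 8.37 and 8.01 in double transgenic samples against 7.88, 8.01 and 8.29 in single transgenic samples, a difference of 0.14 (limma adjusted p = 0.704). None of the 6 genes listed for the CSF1 and GM-CSF receptors passed, with a median of -0.36. The smallest p-values among them were those of the GM-CSF receptor chains Csf2rb2, at -0.59, and Csf2rb, at -0.57, near-identical genes whose probes may read both (limma adjusted p = 0.127 and 0.171).

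Of the receptors for uptake, Mrc1 and Cd163 were the most variable. Mrc1, the mannose receptor CD206 of resident and IL-4-treated macrophages, lies on chromosome 2 from 14151041 to 14253684. It measured 9.14, 8.94 and 8.34 in double transgenic samples and 8.02, 8.29 and 8.41 in single transgenic samples. Samples 52540 and 52541 were above all others, while 52542 lay within the single transgenic range. The difference was 0.57 (SE 0.21, interval 0.06 to 1.08, limma adjusted p = 0.319). Without 52542 it was 0.80 and passed (limma adjusted p = 0.082), and without the other samples in turn it did not. Cd163, the receptor for haptoglobin-bound hemoglobin, lies on chromosome 6 from 124254669 to 124280545. Its signal was 7.14, 6.61 and 6.26 in double transgenic samples against 6.31, 6.46 and 6.33 in single transgenic samples, a difference of 0.30 (interval -0.20 to 0.80, limma adjusted p = 0.594). Cd163 therefore stood out in 52540 only, and its mean was below the median signal of all probe sets. Folr2, a folate receptor of resident macrophages that was named after its values were seen, had the sample order of Mrc1 in each group. Folr2 was at 8.07, 7.66 and 7.42 in double transgenic samples and at 6.90, 7.33 and 7.41 in single transgenic samples, a difference of 0.51 (limma adjusted p = 0.342). Other genes of resident macrophages went both ways by value. Lyve1 (0.67), Vsig4 (0.41) and Siglec1 (0.23) were higher, and Stab1 (-0.06) and Timd4 (-0.10) lower. These were also named after their values were seen, and none had the order of Mrc1 in both groups. Smooth muscle markers did have the sample order of Mrc1. Their mean over 9 genes was 11.94, 11.88 and 11.66 in double transgenic samples and 10.79, 11.29 and 11.78 in single transgenic samples, and their part in the result was not tested.

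Of the markers with a RefSeq window, Mrc1, Cd163 and Cd68 lay furthest from their means in 52540, the first pair upward and Cd68 downward. Their promoter windows are shown. Each is 300 bases around the RefSeq start (GRCm38.p6), at chr2:14229164-14229463 on the plus strand, chr6:124304401-124304700 on the plus strand and chr11:69666121-69666420 on the minus strand. Capitals mark the core GAGGAA bound by the myeloid factor PU.1, or TTCCTC where it lies on the opposite strand.
Mrc1: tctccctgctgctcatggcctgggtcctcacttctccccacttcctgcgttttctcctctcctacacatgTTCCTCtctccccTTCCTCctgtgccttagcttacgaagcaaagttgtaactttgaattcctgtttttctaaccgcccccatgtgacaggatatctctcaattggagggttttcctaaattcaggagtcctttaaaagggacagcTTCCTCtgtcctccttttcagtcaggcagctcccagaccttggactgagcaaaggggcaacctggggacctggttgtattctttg
Cd163: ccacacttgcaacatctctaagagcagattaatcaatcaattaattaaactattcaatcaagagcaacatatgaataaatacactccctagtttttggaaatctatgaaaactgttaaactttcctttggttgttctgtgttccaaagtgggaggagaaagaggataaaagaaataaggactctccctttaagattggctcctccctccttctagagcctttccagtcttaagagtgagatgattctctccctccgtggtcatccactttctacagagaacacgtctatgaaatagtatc
Cd68: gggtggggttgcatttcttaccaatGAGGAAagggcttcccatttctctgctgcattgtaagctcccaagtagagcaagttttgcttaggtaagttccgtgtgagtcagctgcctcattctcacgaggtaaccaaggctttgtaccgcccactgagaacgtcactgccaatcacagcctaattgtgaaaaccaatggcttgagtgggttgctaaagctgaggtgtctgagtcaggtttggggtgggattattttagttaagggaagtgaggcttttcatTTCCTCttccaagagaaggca
Mrc1 held 3 matches, 180, 167 and 35 bases upstream, Cd68 held 2, and Cd163 held none. Of the 5 markers with a RefSeq window, Cd68, Mrc1, Cd163, Marco and Lyz2, 3 held a match, as did 28.3% of 32851 mouse promoter windows of this length searched on both strands. Csf1r, Msr1, Arg1 and Cd14 had no entry. A match is a string of letters and not a measured binding site. The gene for PU.1 itself, Spi1, named here after its values were seen, was at 8.30, 8.49 and 8.06 in double transgenic samples and at 8.65, 8.52 and 8.80 in single transgenic samples, without overlap, a difference of -0.37 (limma adjusted p = 0.277).

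Marco and Msr1, class A scavenger receptors that bind modified lipoproteins and bacteria, differed least. Marco lies on chromosome 1 from 122371115 to 122401661, and its signals of 6.33, 6.44 and 6.44 in double transgenic and 6.45, 6.30 and 6.39 in single transgenic samples lay below the median of all probe sets. Its difference was 0.02 (interval -0.15 to 0.19, limma adjusted p = 0.930), and at this signal the arrays may not show a difference in Marco. Msr1 lies on chromosome 8 from 40667054 to 40728032 and measured 7.16, 7.37 and 7.37 in double transgenic and 7.06, 7.32 and 7.55 in single transgenic samples. Its difference was -0.01 (interval -0.33 to 0.32, limma adjusted p = 0.991). Of 13 other scavenger receptors, 1 fell and none rose. The one that fell was Cd163l1, known in mouse from gamma-delta T cells, at -0.82 (limma adjusted p = 0.0508). Cd36, a fatty acid and lipoprotein receptor also of fat and endothelial cells, was at 11.57, 11.13 and 11.07 in double transgenic samples and at 9.84, 10.71 and 10.33 in single transgenic samples. Its difference of 0.96 did not pass (limma adjusted p = 0.159).

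Cd14, the co-receptor that hands lipopolysaccharide (LPS) to TLR4, lies on chromosome 18 and had the widest difference of the 9. Its signal was 8.24, 8.41 and 9.01 in the double transgenic samples and 8.96, 9.59 and 9.55 in the single transgenic samples. Sample 52542 reached the lowest single transgenic sample, and the groups overlapped there alone. The difference was -0.82 (SE 0.25, interval -1.41 to -0.22), a fold of 0.568 (interval 0.376 to 0.858), with a limma adjusted p of 0.227. Leaving out each sample in turn gave -1.05 to -0.66. Tlr4 and Ly96, the receptor and its LPS-binding partner, differed by -0.06 and -0.15 (limma adjusted p = 0.563 for Ly96). Of the 10 genes listed as partners of Cd14, which include receptors for other bacterial products, 1 fell, none rose and the median was -0.20. Tlr6, which pairs with TLR2 for bacterial lipopeptides, was the one, at 6.97, 6.88 and 6.84 in double transgenic samples against 7.32, 7.31 and 7.42 in single transgenic samples (limma adjusted p = 0.0549). Cd14 is also expressed by neutrophils. Of 14 neutrophil markers 6 fell and none rose. Among those that fell was S100a9, a calcium-binding protein of neutrophils and monocytes that the paper also reports in squamous epithelium. It went from 11.58, 11.22 and 11.53 in single transgenic samples to 9.42, 9.55 and 9.65 in double transgenic samples (limma adjusted p = 0.00687). Of granule genes, Mmp8 (-0.88) and Ltf (-0.76) fell, while Mpo (0.14), Ngp (0.00), Camp (0.00) and Elane (-0.09) did not. These granule genes were named after their values were seen, and those that did not fall had signals below the median of all probe sets. The mean over the 14 neutrophil markers ranged from 7.29 to 7.53 in double transgenic samples and from 8.04 to 8.21 in single transgenic samples. Its part in the Cd14 result was not tested.

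Arg1, which splits arginine into ornithine and urea, lies on chromosome 10 from 24635014 to 24647276. Its signal was 10.93, 11.27 and 10.70 in double transgenic samples and 11.66, 11.28 and 11.27 in single transgenic samples. The groups were apart, though by so little that 52541 and 52545 read the same to 2 decimals. The difference was -0.44 (SE 0.17, interval -0.85 to -0.03, limma adjusted p = 0.338, exact two-sided permutation p = 0.1). Arg2, the mitochondrial arginase, differed by -0.22, and Nos2, the inducible nitric oxide synthase that uses the same substrate, by -0.06 (limma adjusted p = 0.823 for Nos2). None of the 11 genes of arginine use passed, with a median of 0.05. Of 14 genes of alternative activation, the IL-4 program, none passed and the median was -0.14. Of 14 genes of classical activation, 2 fell and none rose, with a median of -0.11. They were Il23a, a subunit of the cytokine IL-23, at -1.10 (limma adjusted p = 0.0290), and the mouse's own Il1b, at -1.61 (limma adjusted p = 0.0704), both made by several myeloid cells. Il1b measured 7.45, 8.05 and 7.97 in double transgenic samples and 9.44, 8.93 and 9.94 in single transgenic samples.

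The remaining 30 monocyte and macrophage genes were likewise mixed. None passed the test, and the median was -0.06, with 18 below 0. An unadjusted limma p under 0.05 was found for 11 of the 30, against 15.1% of named genes, and the groups did not overlap in 7 that were lower and 6 that were higher, against 12.0% and 9.21%. Ly6c2, a surface protein of inflammatory monocytes, had the smallest p and was lower, at 7.94, 8.34 and 8.23 in double transgenic samples against 8.84, 8.66 and 9.0 in single transgenic samples (limma adjusted p = 0.1, just above the threshold). Spp1, the secreted protein osteopontin of macrophages and epithelium, was higher, at 9.62, 10.06 and 10.67 against 8.79, 9.14 and 8.62 (limma adjusted p = 0.117). Mertk, a receptor for dying cells, was higher by 0.30 (limma adjusted p = 0.158). Adgre1, an adhesion receptor long used to stain mouse macrophages, was at 8.92, 9.15 and 7.73 in double transgenic samples and at 8.67, 8.45 and 8.54 in single transgenic samples, so that the highest and the lowest samples were both double transgenic. Itgam, the CD11b of monocytes, macrophages and neutrophils, was lower without overlap, at 7.88, 8.06 and 7.50 against 8.31, 8.14 and 8.59 (limma adjusted p = 0.257). Of 8 monocyte chemokines, none passed, and Ccl2, the ligand of CCR2, differed by -0.24 (limma adjusted p = 0.706).

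**Figure D3:**
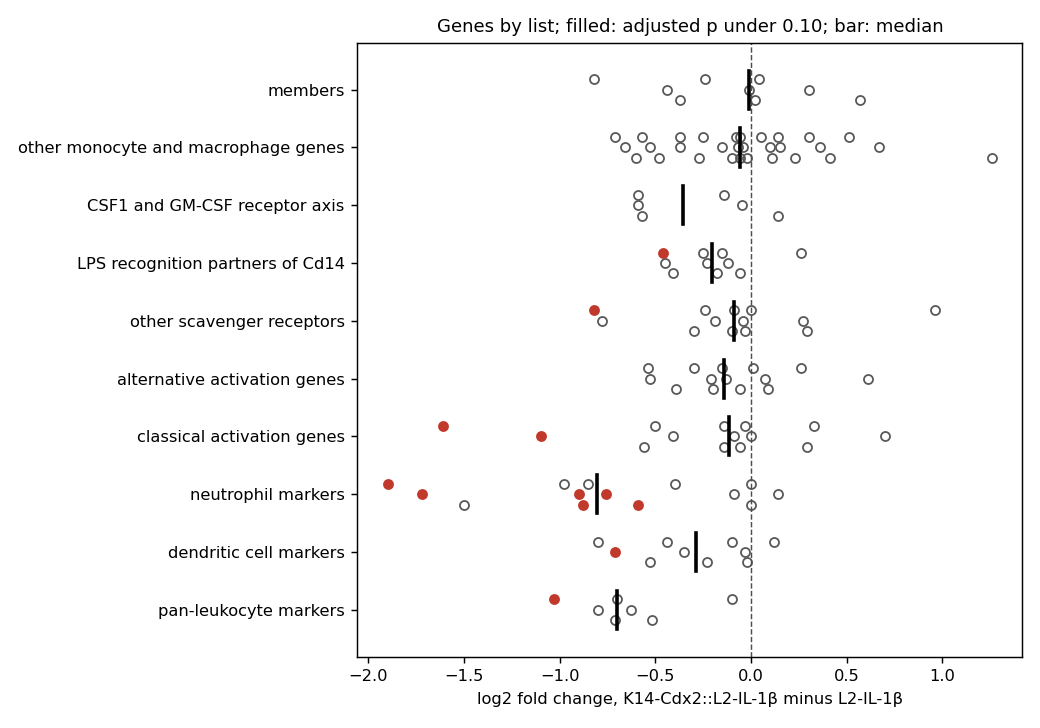
Differences of single genes in log2 units (horizontal axis, K14-Cdx2::L2-IL-1β minus L2-IL-1β) by gene list, with a bar at each list's median and filled points for adjusted p under 0.10. No filled point lies among the 9 markers or the 30 other monocyte and macrophage genes, and 6 lie among the neutrophil markers.

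The 9 markers did not move as a block from sample to sample. In 52540, Mrc1 and Cd163 were each 0.62 above their means over the 6 samples, while Cd14 was 0.72 and Cd68 0.61 below theirs. In 52542, Csf1r was 0.58 and Arg1 0.48 below, with Lyz2 0.21 above. Arrays 52540 and 52542 were also those on which limma's array weights were lowest, at 0.42 and 0.52 against 1.21 to 1.58. For 6 of the 9 markers the SD was larger in double transgenic than in single transgenic samples, as it was for 69.0% of all named genes. Sample 52542 had the highest mean over columnar and gastric epithelium markers, 12.99 against 11.78 to 12.54, and the lowest over pan-leukocyte markers, 8.28 against 8.58 to 9.28. The part of these in the markers' values was not tested.

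**Figure D4:**
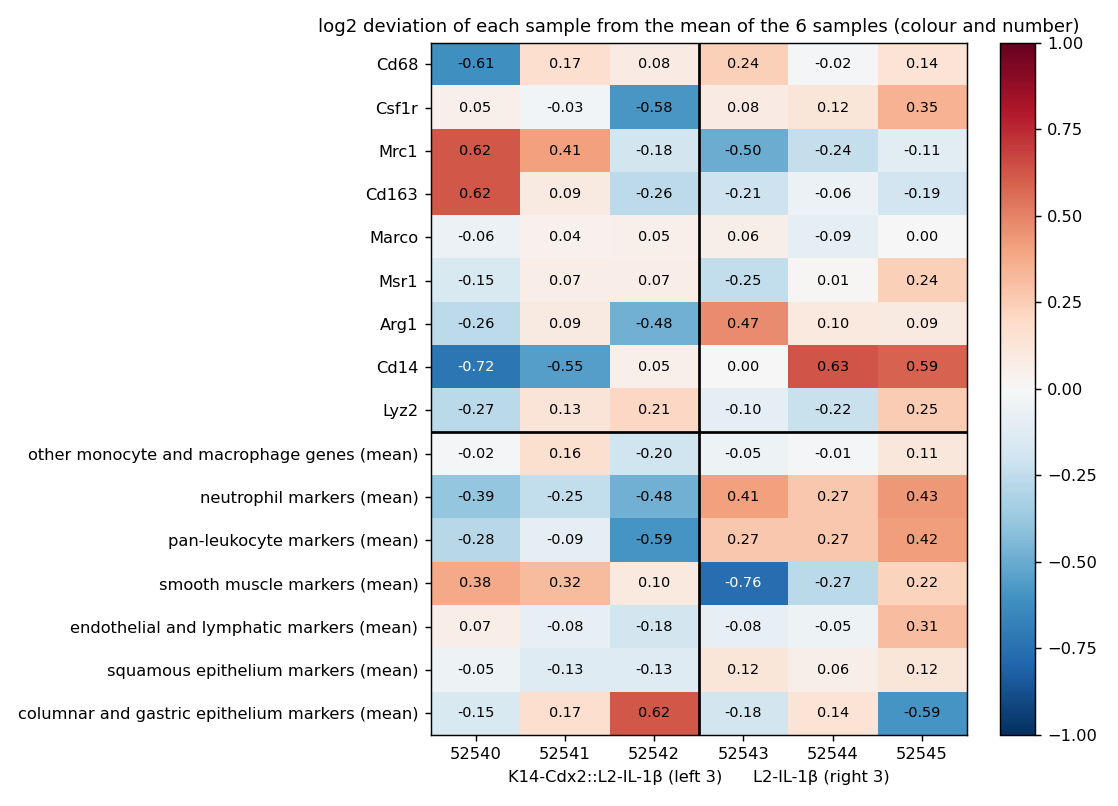
Deviation of each sample (columns) from the mean of the 6 samples in log2 units, for the 9 markers and for the mean over 7 other gene lists (rows). Sample 52540 reads 0.62 for Mrc1 and Cd163 but -0.72 for Cd14, and neutrophil markers are negative in all 3 K14-Cdx2::L2-IL-1β samples.

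The markers were also set against leukocytes as a whole, a comparison chosen after seeing the data. The mean over 7 pan-leukocyte genes was 8.58, 8.77 and 8.28 in double transgenic samples and 9.13, 9.13 and 9.28 in single transgenic samples, a difference of -0.64 (exact two-sided permutation p = 0.1). Of these 7, 1 passed the test, Cd53, a tetraspanin of leukocytes, at -1.03 (limma adjusted p = 0.0428). Subtracting that mean in each sample adds 0.64 to the difference of every gene, so that 0.64, and not 0, stands for no change in signal, and the median of all named genes became 0.64. On this scale Mrc1 differed by 1.21, Cd163 by 0.94, Lyz2 by 0.68, Marco by 0.66, Msr1 by 0.63, Cd68 by 0.40, Csf1r by 0.27, Arg1 by 0.20 and Cd14 by -0.17. The difference was above 0 in 8 of the 9 markers, as in 98.5% of named genes. The groups did not overlap in 6 of the 9, against 89.8% of named genes. These counts follow from the subtraction and are no result about the markers.

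Genes with a profile like that of the 3 most variable markers were found by the root mean square difference of centred log2 signals over the 6 samples. For Mrc1 they were Prrt2 at 0.07, and Gria1 and Ncam1 at 0.08 each. For Cd14 they were Ovgp1 at 0.19, Mill1 at 0.20 and Nt5dc2 at 0.21. For Arg1 they were Sdr42e1, Kctd11 and BC064078, at 0.08 each. Such a search returns a nearest gene for any marker, and shared regulation was not tested.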

How the data were processed

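RNA from SCJ nodules, 3 samples of K14-Cdx2::L2-IL-1β and 3 of L2-IL-1β, was hybridised to Affymetrix mouse gene arrays. The array version differs between the methods and the design text, and how probes were summarised and normalized is not stated in either. The values used are log2 signals deposited by the authors for 34365 probe sets, 27037 of them with a gene symbol. Per the labels the build is mm8, while the deposited annotation gives positions in NCBIM37. The deposited tables also hold the authors' own comparisons (fold changes, ratios, scores, p- and q-values), which were not used. The number of arrays limits precision.

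The 6 arrays were fitted with limma 3.58.1 in R 4.3.3 (1 coefficient for genotype, eBayes), with Benjamini-Hochberg adjustment over all 34365 probe sets and a call at adjusted p under 0.10. The methods' SAM test was not rebuilt. Exact two-sided permutation tests over samples were added, and the fit was tested on simulated data. Where a gene had several probe sets the brightest was used, giving 24647 named genes. Intervals are 95%.

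The 9 markers and the 24 gene lists (258 entries, 251 found by symbol, 6 by an older symbol, 1 not found) were chosen with earlier results of these data known. Genes named are the 9 markers, fixed partners, up to 3 genes of smallest p per list and the nearest profiles. Any other gene is said to be named after its values were seen. Alternatives were a further quantile normalization, median centring, leaving out dim probe sets, another variance prior, no variance moderation, array weights, other thresholds and leaving out each array.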

Additional observations from a re-analysis of the deposited data

How the results depend on the processing

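None of the 9 markers was called lower under any alternative, and none was called higher except 1, Mrc1, without 52542 (0 to 1 over the samples left out). Over the settings that kept all samples, 50 of 52 marker differences kept their sign and side of the threshold. Msr1 changed sign with median centring, to 0.00, and with array weights, to 0.05. The lowest adjusted p in these was 0.13. Leaving out each sample in turn gave -0.38 to 0.01 for Cd68, -0.49 to -0.17 for Csf1r, 0.40 to 0.80 for Mrc1, 0.07 to 0.50 for Cd163 and -0.02 to 0.06 for Marco. It gave -0.13 to 0.11 for Msr1, -0.59 to -0.30 for Arg1, -1.05 to -0.66 for Cd14 and -0.06 to 0.19 for Lyz2. Of the other monocyte and macrophage genes, 1 was called lower, Ly6c2, with the further quantile normalization, without dim probe sets, with array weights and without 52540 (0 to 1 over the samples left out). Among the same genes Spp1 was called higher without dim probe sets (1.26), with array weights (1.24) and without 52540 (1.51), and Gpnmb, named after its values were seen, without 52542 (0.54). The cause was not tested. Relative to pan-leukocyte genes, chosen after seeing the data and adding 0.64 to the difference of every gene by construction, Cd68 (0.40), Csf1r (0.27), Msr1 (0.63) and Arg1 (0.20) changed sign, and Mrc1 (1.21), Cd163 (0.94), Marco (0.66), Cd14 (-0.17) and Lyz2 (0.68) moved by more than their SD. Without moderation of the variance, no marker had an unadjusted p under 0.05, against 3 in limma. Cd163 and Marco gave no value once dim probe sets were left out. Averaging several probe sets of a gene was not needed, since each marker has 1. No paired analysis was possible because no number occurs in both genotypes. With 3 arrays a group, precision is limited: the widest interval among the markers was that of Cd14, -1.41 to -0.22.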

Other observations

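Other cell types of the nodules were read from the remaining gene lists, which were chosen with earlier results known. Of 10 dendritic cell markers 1 fell, the cytokine receptor Flt3, at -0.71 (limma adjusted p = 0.0683), with a list median of -0.29. Of 8 T cell markers 1 fell, the surface receptor Cd5, at -0.71 (limma adjusted p = 0.0988), with a median of -0.32 and 5 of the 8 below 0. Cd3e, at -1.29, did not pass (limma adjusted p = 0.103). Neither did Cd3g, at -1.47, Cd8a, at 0.30, and Cd8b1, at 0.37, which are named after their values were seen. Of 10 squamous epithelium markers 2 fell, the keratins Krt14 and Krt6a, with a median of -0.17. None passed among the markers of B and plasma cells (median 0.07), mast cells and eosinophils (0.37), endothelium and lymphatics (-0.08), smooth muscle (0.53), fibroblasts (0.00), acinar cells (1.54), columnar and gastric epithelium (0.30) and Paneth cells (0.03), or among the lysozyme family (0.03). No gene of these lists was called higher. By value, however, every smooth muscle gene was above 0, and 9 of the 10 dendritic cell markers were below 0. Every acinar gene was above 0 too, but the acinar mean was high in 52542 only, at 10.73. It was 6.80 in 52540 and 7.02 in 52541, against 6.42 to 6.92 in single transgenic samples.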
